A study of Mus musculus with 15 samples.

Results

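The small and cytosolic heat shock chaperones examined here are 10 genes chosen by name: 6 small heat shock proteins of muscle (Hspb1, Hspb2, Hspb6, Hspb7, Hspb8 and Cryab), the constitutive HSP70 Hspa8, the HSP40 co-chaperone Dnajb1, and the cytosolic HSP90 pair Hsp90aa1 and Hsp90ab1. All 10 were among the 15258 genes listed and among the 11018 genes tested. RNA from the left ventricle of male C57BL/6NRj mice was read by BRB-seq, an assay that pools barcoded samples and counts the 3′ ends of their transcripts. The groups, with 5 libraries each, were TAC NRG (transverse aortic constriction, surgery that narrows the aortic arch so that the ventricle pumps against a higher pressure, with a minipump of neuregulin-1, a growth factor that acts on ERBB receptors), TAC saline (the same surgery with a saline pump) and sham saline (sham surgery with a saline pump). No sham group with neuregulin was part of the design. Ages, doses and times were not stated in the labels read here. Since nothing in the labels ties each library to a mouse of its own, p-values here reflect only how much these libraries vary, and part of that may be technical.

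Small heat shock proteins share an alpha-crystallin domain, form oligomers, and hold unfolding proteins in a soluble state without using ATP. In heart and skeletal muscle they sit at Z-discs, filamins, desmin and titin, and mutations in several of them cause myopathy or cardiomyopathy. ATP-driven HSP70 machines, with HSP40 proteins that deliver clients and stimulate the ATPase, then refold or hand over the clients, and HSP90 completes the folding of kinases, receptors and myosin. The transcription factor HSF1 raises the inducible members of this network when misfolded protein accumulates, through repeats of the letters GAA and their complement TTC in gene promoters.

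Promoter windows from RefSeq (build GRCm38.p6, 250 bases before to 50 after an annotated start) were at hand for 5 of the 10 genes, with 7 windows in all. The last 140 bases before the start are shown for 4 of these genes, with 18 bases after it for Hspb8. Hspb6, Hspb7 and Hspb1 rose in both TAC groups against sham saline, and Hspb8 did not pass. Dnajb1, which has windows but is not shown, did not pass either. A link between these sequences and the responses was not tested. Capitals mark the letters GAANNTTC, a facing pair of heat shock element units that reads the same on both strands, and the TATA letters TATAAA.
Hspb6, plus strand, chr7:30553161-30553300: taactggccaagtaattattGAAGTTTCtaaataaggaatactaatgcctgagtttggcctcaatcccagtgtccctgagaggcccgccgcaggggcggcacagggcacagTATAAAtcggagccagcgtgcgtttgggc
Hspb7, plus strand, chr4:141420639-141420778: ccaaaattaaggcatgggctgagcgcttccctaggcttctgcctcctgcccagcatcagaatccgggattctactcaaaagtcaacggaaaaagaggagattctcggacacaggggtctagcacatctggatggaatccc
Hspb1, plus strand, chr5:135887779-135887918: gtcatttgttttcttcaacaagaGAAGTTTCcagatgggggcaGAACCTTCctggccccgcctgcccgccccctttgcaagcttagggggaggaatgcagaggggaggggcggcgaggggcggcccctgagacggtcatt
Hspb8, minus strand, chr5:116422847-116423004: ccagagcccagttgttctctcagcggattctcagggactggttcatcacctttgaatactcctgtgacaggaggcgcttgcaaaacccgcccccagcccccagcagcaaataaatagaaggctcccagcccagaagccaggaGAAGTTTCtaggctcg

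The GAANNTTC pair occurred in 3 of the 7 windows, against 7.86% of 32851 windows of the same length in the table. Hspb1 held it at 2 places, beginning 117 and 97 bases before the start, Hspb6 held it 120 bases before the second of its 2 annotated starts, and Hspb8 held it 3 bases into the transcript. Hspb7 and Dnajb1 held none in these windows, and the opposite arrangement TTCNNGAA, on both strands, was in 0 of the 7 windows against 8.52% of all windows. TATAAA, on both strands, stood 29 bases before the second start of Hspb6 and in 13.6% of all windows, and the CArG box was in 0 of the 7 windows against 1.63% of all. These are matches of letters, and binding was not measured.

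The depth of the libraries was 2.02 to 5.62 M whole reads, recovered from the deposited values, and 1 read was worth 0.174 to 0.464 CPM. Mitochondrially encoded transcripts took a smaller share of reads in both TAC groups than in sham saline (25.8% ± 2.35 in TAC NRG, 27.7% ± 1.62 in TAC saline and 31.1% ± 0.47 in sham saline, SD, n = 5 each; exact two-sided permutation p = 0.0079 and, over 6 comparisons, adjusted p = 0.0238 for either TAC group against sham). TAC NRG replicates 4 and 5 stood apart from the other 13 libraries on the second principal component, were the shallowest at 2.02 and 2.13 M reads, and had the highest summed level of 5 red cell transcripts, 3488 and 3340.2 CPM, against 1703 to 2113 CPM in the other 3 TAC NRG libraries. Results that involve TAC NRG are therefore also given without these libraries where that moves them. As to the labelled tissue, 10 cardiomyocyte markers summed to at least 50087 CPM in every library, while the atrial markers Myl7 and Myl4 summed to no more than 5.69 CPM. The skeletal fibre gene Myh4 was at 0 in all 5 sham libraries and reached 0.519 CPM in TAC saline and 1.66 CPM in TAC NRG. The atrial markers Sln and Bmp10 and the skeletal fibre genes Myh1, Myh2, Actn3 and Pvalb were not among the genes listed. Levels below are CPM on the authors' scaling, and fold changes come from limma's fit to the log2 values of all 15 libraries, with standard errors (SE) and Benjamini-Hochberg adjusted p over the 11018 genes.

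Constriction with saline, set against sham, asks how the chaperone transcripts respond to pressure load. Hspb6 and Hspb7 were about 1.69 and 1.50 times as high, Hspb1 and Hsp90aa1 were each 1.33 times as high, and Cryab was 1.23 times as high in TAC saline. Hspb2, Hspb8, Hspa8, Hsp90ab1 and Dnajb1 did not pass the test. Thus 5 of the 10 genes rose and 0 fell, where 6.47% of all genes tested rose, and 4 of the 10 were higher in every TAC saline library than in any sham library, where 4.72% of all genes were. The median log2 fold change of the 10 was 0.20 beside a median of -0.01 over all genes tested. It was 0.35 for the 6 small heat shock proteins and 0.09 for the other 4. In bulk tissue a change in the number of cells of a type and a change in RNA per cell cannot be told apart.

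**Figure D1:**
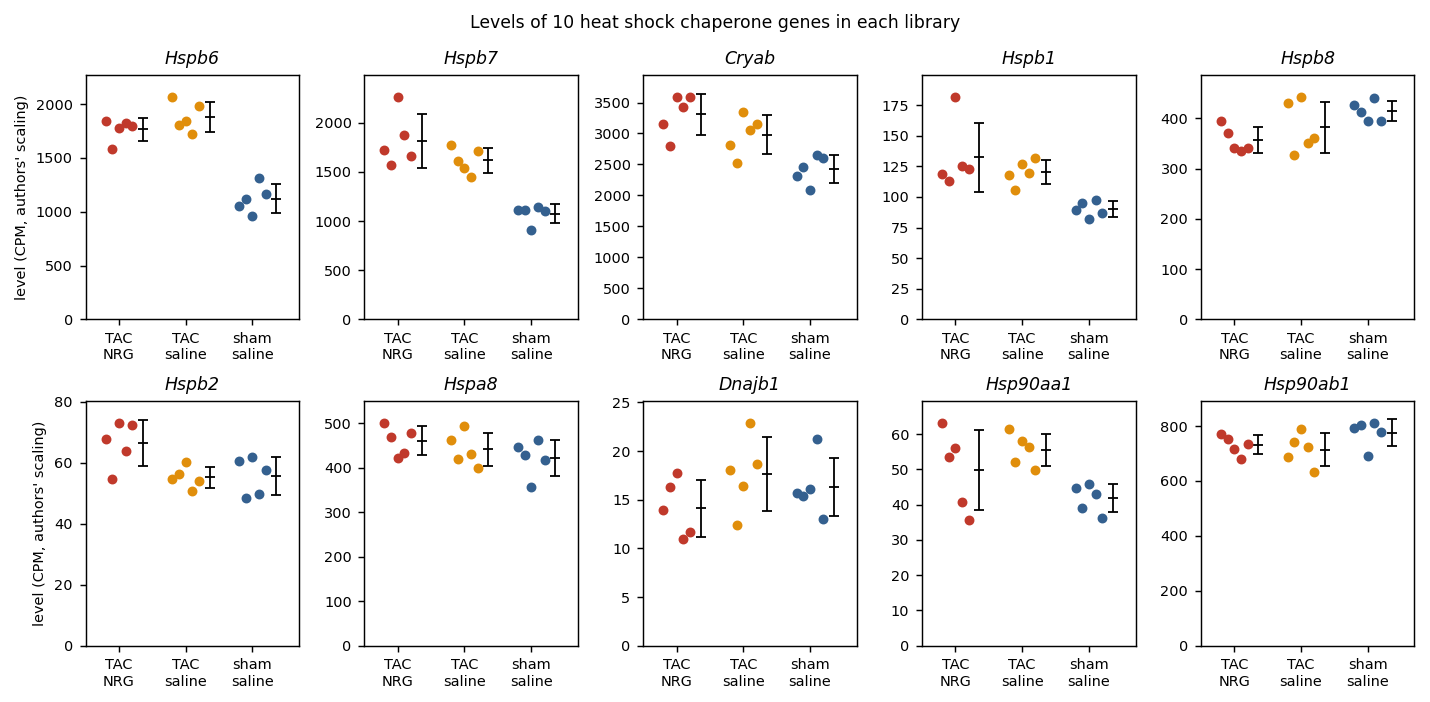
Level of each of the 10 genes (CPM on the authors' scaling, linear axes from 0) in every library of TAC NRG, TAC saline and sham saline, with points in replicate order and the mean ± SD of 5 libraries in black. Hspb6 lies between 1582 and 2067 CPM in the 10 TAC libraries and between 957 and 1312 CPM in sham, while Hspb8 and Hspa8 overlap between groups.

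Hspb6, also called HSP20, is a small heat shock protein of cardiac and smooth muscle that is phosphorylated by cyclic nucleotide-dependent kinases. Its level was 2067, 1806, 1839, 1719 and 1982 CPM in TAC saline replicates 1 to 5, against 1052, 1113, 957, 1312 and 1166 CPM in sham saline replicates 1 to 5. Every TAC saline library was above every sham library. The log2 fold change was 0.75 ± 0.08 (SE, limma adjusted p = 4.1e-06), and Hspb6 ranked 6 by p among all 11018 genes. No alternative processing and no omitted library took the call away.

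Hspb7, called cardiovascular HSP or cvHSP, binds filamin C and is needed for sarcomere integrity in the mouse heart. In TAC saline it stood at 1772, 1613, 1537, 1451 and 1717 CPM, against 1111, 1117, 909, 1143 and 1107 CPM in sham saline. The groups did not overlap, and the log2 fold change was 0.59 ± 0.09 (SE, limma adjusted p = 0.000181). The sham range rests partly on replicate 3, which was the lowest sham library for Hspb7, Hspb6, Hspb1 and Cryab.

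Hspb1, known as HSP25 in the mouse, guards actin filaments and is phosphorylated downstream of p38 kinase. TAC saline libraries held 118, 106, 127, 119 and 131 CPM, against 89.3, 95.1, 82.1, 97.8 and 86.9 CPM in sham saline. Again all 5 TAC saline libraries lay above all 5 sham libraries (log2 fold change 0.41 ± 0.10 SE, limma adjusted p = 0.0112). Like Hspb6 and Hspb7, Hspb1 kept its call under every alternative and without any 1 library.

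Cryab encodes alpha-B-crystallin, which binds desmin and titin, and whose mutation causes a desmin-related cardiomyopathy. It was measured at 2810.1, 2532, 3346, 3049.6 and 3152 CPM in TAC saline, against 2321, 2465, 2089, 2659 and 2606 CPM in sham saline. One TAC saline library, replicate 2, fell within the sham range, and the other 4 lay above it. The log2 fold change was 0.29 ± 0.09 (SE, limma adjusted p = 0.0418). This call did not hold without sham saline replicates 1, 2 or 3 or TAC saline replicates 1, 3, 4 or 5, each left out alone, where the adjusted p was 0.0628 to 0.130, nor without the filter on low values (adjusted p = 0.0675), nor with the replicate number as a block (adjusted p = 0.0523).

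Hspb2 and Cryab are neighbours on chromosome 9 that are transcribed in opposite directions, with annotated gene bodies that overlap by 1030 bases in GENCODE on GRCm38 and 3′ ends that lie 5558 bases apart. Hspb2, the partner of Hspb3 in muscle, was at 54.5, 56.4, 60.1, 50.8 and 54.0 CPM in TAC saline, against 60.6, 48.4, 61.7, 49.6 and 57.6 CPM in sham saline. All TAC saline values lay inside the sham range, and the log2 fold change was -0.01 with a 95% interval of -0.21 to 0.20. The log2 ratio of Cryab to Hspb2 averaged 5.75 ± 0.17 in TAC saline and 5.45 ± 0.28 in sham saline (SD, n = 5 each), a difference of 0.30 with exact two-sided permutation p = 0.0794 (adjusted p = 0.206 over 6 ratio tests). A second annotation places Cryab at chr9:50745951-50756636, which spans all of Hspb2 at chr9:50751072-50752354. No source read here states whether strand was used in counting. Reads of the overlapping part, which is all of Hspb2 in the second annotation, could therefore be shared.

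Hspb8, or HSP22, acts with the co-chaperone Bag3 in chaperone-assisted autophagy of damaged filamin. TAC saline libraries gave 430.2, 327, 443, 350.0 and 360.1 CPM, against 427, 413, 395, 439.8 and 395 CPM in sham saline. The TAC saline libraries were more spread than the sham libraries and reached both above and below them. Its log2 fold change was -0.12 ± 0.08 (SE, limma adjusted p = 0.387), with a 95% interval of -0.29 to 0.05.

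Among the larger chaperones, Hsp90aa1, the stress-inducible cytosolic HSP90, stood at 61.4, 52.1, 58.0, 56.3 and 49.9 CPM in TAC saline, against 44.8, 39.2, 45.8, 43.2 and 36.4 CPM in sham saline. The groups did not overlap (log2 fold change 0.41 ± 0.13 SE, limma adjusted p = 0.0378). The call was lost when sham saline replicate 1, 2, 4 or 5 or TAC saline replicate 1, 3 or 4 was left out, with an adjusted p of 0.0501 to 0.105, although the log2 fold change stayed between 0.36 and 0.45. Hsp90ab1, the constitutive form, was at 686, 744, 788, 723 and 631 CPM in TAC saline, against 794, 805, 689, 811 and 778 CPM in sham saline. These overlapped, and its log2 fold change was -0.12 (95% interval -0.27 to 0.03).

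The proportion of the 2 cytosolic HSP90 forms differed between these groups. The log2 ratio of Hsp90aa1 to Hsp90ab1 was -3.69 ± 0.13 in TAC saline and -4.21 ± 0.20 in sham saline (SD, n = 5 each), a difference of 0.53 (exact two-sided permutation p = 0.0079, the smallest that 5 against 5 libraries allow, adjusted p = 0.0476 over 6 ratio tests). Every TAC saline library had a higher ratio than every sham library. With 1 library left out, the difference was 0.48 to 0.60, and the adjusted p rose to between 0.0635 and 0.0952. With 4 against 5 libraries the smallest possible p is larger, so over 6 tests this ratio could not pass on its own. The lost call thus does not show that the difference rests on 1 library. Both genes have processed copies in the mouse genome, so reads that matched more than 1 place are a source of uncertainty in their levels.

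Hspa8, the constitutive HSP70 also called HSC70, strips clathrin coats and drives folding and chaperone-assisted autophagy. Its level was 463, 420.1, 494, 431 and 399 CPM in TAC saline, against 447, 429, 356, 463 and 417 CPM in sham saline. The ranges overlapped, with TAC saline replicate 3 the highest and sham saline replicate 3 the lowest of the 10 libraries, and the log2 fold change was 0.07 (95% interval -0.10 to 0.23). Dnajb1, the HSP40 that primes HSP70 for disaggregation and is induced by HSF1, was at 18.1, 12.4, 16.5, 22.9 and 18.6 CPM in TAC saline, against 15.7, 15.4, 16.1, 21.2 and 13.0 CPM in sham saline. It had 43 to 92 reads in these 10 libraries, which gave a wide 95% interval of -0.24 to 0.46 around a log2 fold change of 0.11.

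**Figure D2:**
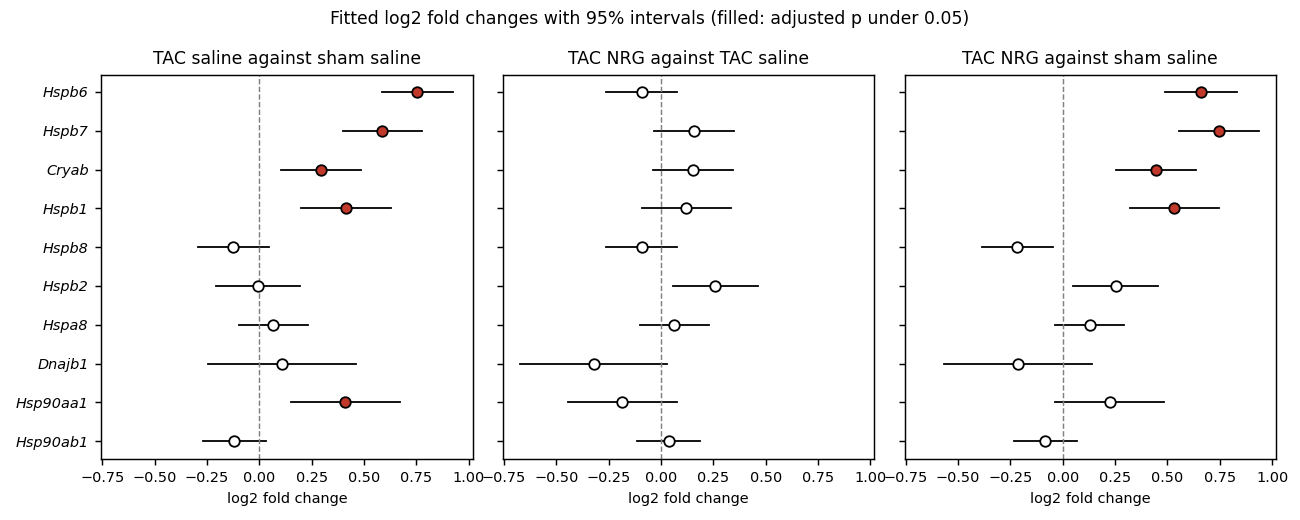
Fitted log2 fold change of each gene (points) with its 95% interval (lines) in the 3 comparisons, filled where the adjusted p was under 0.05. Points are filled for 5 genes in TAC saline against sham saline, for 0 in TAC NRG against TAC saline and for 4 in TAC NRG against sham saline.

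The addition of neuregulin under constriction, TAC NRG against TAC saline, addresses whether the growth factor alters the loaded ventricle. None of the 10 genes passed this test by limma, where 1.3% of all genes tested did (143 genes, of which 74 were higher), and 0 of the 10 had groups that did not overlap, where 3.06% of all genes had such groups. At an unadjusted p under 0.05 there was 1 gene, Hspb2. The number of genes past the test over the whole table was 39 without TAC NRG replicates 4 and 5, 77 when only these 2 groups were fitted, and 58 to 229 when any 1 library was left out. The 95% intervals of Hspb6, Hspb7, Hspb8, Cryab, Hspa8 and Hsp90ab1 lay between -0.26 and 0.35 on the log2 scale, which does not show that the groups were alike.

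Hspb2 was at 67.9, 54.5, 73.0, 63.9 and 72.3 CPM in TAC NRG replicates 1 to 5, against 54.5, 56.4, 60.1, 50.8 and 54.0 CPM in TAC saline. In 4 of 5 TAC NRG libraries it exceeded all TAC saline libraries (log2 fold change 0.26 ± 0.10 SE, limma adjusted p = 0.199). Cryab on the other strand had a log2 fold change of 0.15 ± 0.09 (SE, limma adjusted p = 0.443), and the log2 ratio of Cryab to Hspb2 was 5.64 ± 0.08 in TAC NRG and 5.75 ± 0.17 in TAC saline (SD, n = 5 each; exact permutation p = 0.230, adjusted p = 0.230).

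Hspb6 was at 1839.9, 1582, 1773, 1827 and 1798 CPM in TAC NRG, inside or below the TAC saline range of 1719 to 2067 CPM. Its log2 fold change was -0.09 (95% interval -0.26 to 0.08). Hspb7 was at 1723, 1567, 2265, 1872 and 1659 CPM in TAC NRG, against 1451 to 1772 CPM in TAC saline, with a log2 fold change of 0.16 (95% interval -0.03 to 0.35). Without TAC NRG replicate 3, the highest library, this was 0.08, and by quantile normalization 0.06. TAC NRG replicate 3 was the highest of its group for Hspb1, Hspb2, Hspb7 and Cryab and the lowest for Hspa8, a pattern picked out after the values were seen.

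Hsp90aa1 differed among the TAC NRG libraries themselves. It was at 63.2, 53.7, 56.2, 40.6 and 35.6 CPM in TAC NRG replicates 1 to 5, against 49.9 to 61.4 CPM in TAC saline. The first 3 libraries lay within or above the TAC saline range, and replicates 4 and 5 lay below it. Against the sham range of 36.4 to 45.8 CPM, replicate 4 lay inside and replicate 5 just below. The log2 fold change was -0.18 ± 0.13 (SE, limma adjusted p = 0.515) with all 5 libraries and 0.05 (adjusted p = 0.928) without replicates 4 and 5.

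Dnajb1 was at 14.0, 16.3, 17.7, 10.9 and 11.7 CPM in TAC NRG, against 12.4 to 22.9 CPM in TAC saline. Replicates 4 and 5, with 23 reads in the library with the fewest, were again the lowest of their group. The log2 fold change was -0.32 ± 0.17 (SE, limma adjusted p = 0.380) with all libraries and -0.13 without those 2. The same 2 libraries were the lowest of TAC NRG for Hspa1a, Hspa1b, Hsph1 and Dnaja1, genes linked to HSF1, but not for Hspb1, where replicates 1 and 2 were lowest, nor for Hspa1l, another HSP70 gene, at 8.98, 8.26, 13.4, 10.9 and 9.06 CPM in replicates 1 to 5. This grouping was made after the values were seen. Hspa1a, an inducible HSP70, was at 6.50, 3.39, 5.73, 1.63 and 1.11 CPM in TAC NRG replicates 1 to 5, and Hspa1b, its near-identical neighbour, was at 8.43, 7.39, 7.51, 5.34 and 3.76 CPM. Reads of this pair may be split between them by the counting, so each level is uncertain. Hsph1, an HSP110 that recharges HSP70 with ATP, was at 15.1 and 10.8 CPM in replicates 4 and 5, against 17.4 to 20.6 CPM in the other 3, and Dnaja1, another HSP40, was at 37.4 and 36.0 CPM, against 38.2 to 41.6 CPM. The depth and the red cell transcripts of replicates 4 and 5, given above, moved with these levels, and their part in the result was not tested.

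**Figure D3:**
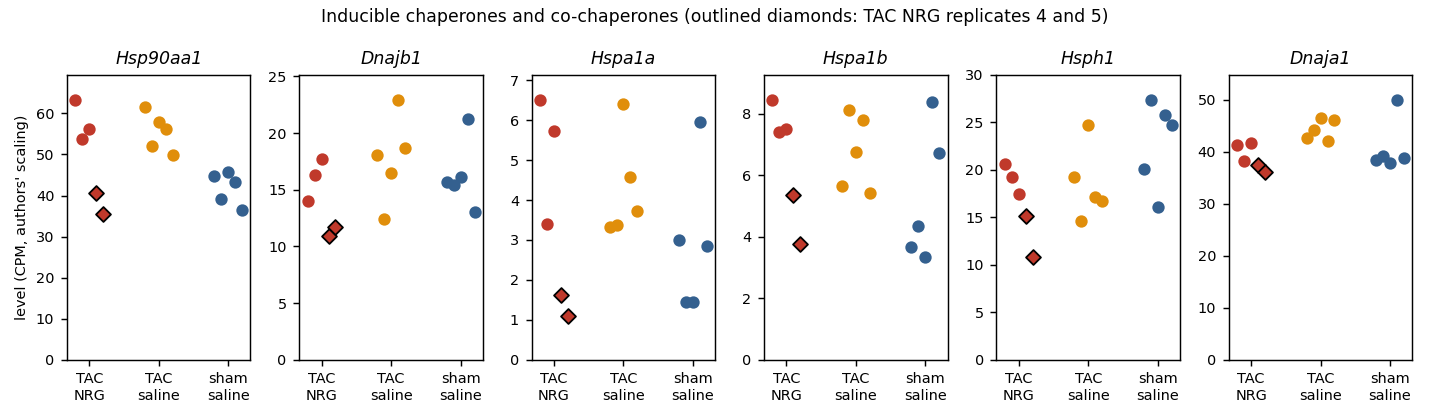
Levels (CPM on the authors' scaling, linear axes from 0) of Hsp90aa1, Dnajb1, Hspa1a, Hspa1b, Hsph1 and Dnaja1 in each library of TAC NRG, TAC saline and sham saline, in replicate order within a group. The outlined diamonds, TAC NRG replicates 4 and 5, are the 2 lowest TAC NRG libraries in all 6 panels, for example 40.6 and 35.6 CPM for Hsp90aa1.

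TAC NRG against sham saline shares its libraries with both comparisons above, so its values stand beside them and are not independent of them. By this comparison, 4 of the 10 genes rose, where 8.74% of all genes tested rose, and the same 4 had no overlap between groups, where 6.23% of all genes did. Hspb7 was 1.68 times as high (log2 fold change 0.75 ± 0.09 SE), Hspb6 1.58 times (0.66 ± 0.08), Hspb1 1.45 times (0.53 ± 0.10) and Cryab 1.36 times (0.45 ± 0.09), with limma adjusted p of 4.8e-06, 5.4e-06, 0.000839 and 0.00152 in that order of genes. Cryab, at 3158, 2804, 3592, 3419.6 and 3584 CPM in TAC NRG, was above the sham maximum of 2659 CPM in all 5 libraries. Hspb1, at 118, 113, 182, 126 and 123 CPM in TAC NRG, was above the sham maximum of 97.8 CPM in all 5.

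Hspb2 and Hspb8 did not pass this test. Hspb2 averaged 66.3 ± 7.53 CPM in TAC NRG and 55.6 ± 6.22 CPM in sham saline (log2 fold change 0.25, limma adjusted p = 0.0795). Hspb8 averaged 357 ± 25.9 CPM in TAC NRG and 414 ± 19.6 CPM in sham saline, a log2 fold change of -0.22 (adjusted p = 0.0744). Hsp90aa1 did not pass either, and averaged 49.8 ± 11.4 CPM in TAC NRG and 41.9 ± 3.98 CPM in sham saline (SD, n = 5 each). Its log2 fold change of 0.23 (adjusted p = 0.249) was 0.46 (adjusted p = 0.0055) without TAC NRG replicates 4 and 5. Hspa8, Hsp90ab1 and Dnajb1 had log2 fold changes of 0.13, -0.08 and -0.21, all with an adjusted p of at least 0.304.

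Summed over the 10 genes, the level was 8704 ± 595 CPM in TAC NRG, 8265 ± 429 CPM in TAC saline and 6441 ± 531 CPM in sham saline on the authors' scaling. As a share of each library's own total, it was 9321 ± 952 reads per M in TAC NRG, 8942 ± 638 in TAC saline and 6450 ± 519 in sham saline (SD, n = 5 each). By group means, Hspb1, Hspb2, Hspb7, Cryab and Hspa8 were highest in TAC NRG, Hspb6, Hsp90aa1 and Dnajb1 in TAC saline, and Hspb8 and Hsp90ab1 in sham saline. Means of the 2 TAC groups did not differ beyond the test for any of the 10.

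The rest of the chaperone network was read from lists of related genes. In TAC saline against sham saline, where 6.47% of all genes tested rose and 4.24% fell, few of these genes passed. Of 10 other cytosolic HSP70 and HSP110 genes, 1 rose, Hspa1l, a relative of the inducible HSP70s known for its testis expression. It was at 12.3, 8.62, 10.6, 8.53 and 8.06 CPM in TAC saline, against 3.67, 4.62, 5.58, 9.61 and 4.34 CPM in sham saline (log2 fold change 0.86 ± 0.23 SE, limma adjusted p = 0.0149), and the adjusted p was 0.0503 and 0.0564 without sham saline replicate 1 and TAC saline replicate 1. Hspa1l lies beside Hspa1a and Hspa1b in the genome and is close to them in sequence, so its reads are uncertain too. Of 16 other HSP40 genes tested, 1 rose, Dnaja4, by 0.40 on the log2 scale (adjusted p = 0.0133, and 0.0514 without TAC saline replicate 5). Of 20 HSP90 co-chaperones, 0 rose and 1 fell, Fkbp4, an immunophilin that accompanies HSP90 on steroid receptors. It was at 147, 179, 198, 150.5 and 129 CPM in TAC saline, against 235, 212, 218, 240.3 and 216 CPM in sham saline, a log2 fold change of -0.50 ± 0.13 (SE, adjusted p = 0.0176, and 0.0525 and 0.0708 without TAC saline replicates 1 and 5).

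Clients and partners of the small heat shock proteins included Flnc, the gene with the smallest adjusted p among these lists of related genes. Of 10 genes of chaperone-assisted autophagy and its clients, 2 rose, Flnc and Des, and 0 fell. Over all genes tested, 6.47% rose and 4.24% fell, and the median log2 fold change of this list was -0.05. Flnc encodes filamin C, the actin cross-linker that Hspb7 and Bag3 bind. It was at 319, 211, 201, 208 and 319.7 CPM in TAC saline, against 139.5, 151, 137, 149 and 146 CPM in sham saline, with no overlap (log2 fold change 0.77 ± 0.14 SE, limma adjusted p = 0.000651). Des, the desmin of the intermediate filaments that Cryab binds, was 0.31 higher on the log2 scale (adjusted p = 0.0194), and its adjusted p was 0.0555 to 0.0658 without sham saline replicate 1, 3 or 5 or TAC saline replicate 4. Bag3, the co-chaperone of Hspb8, was not called (log2 fold change 0.09, adjusted p = 0.600).

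Regulators and genes of the other folding systems had few calls. Short lists would hold few at the shares over all genes tested, of which 6.47% rose and 4.24% fell. Hsf1, the main heat shock transcription factor, had a log2 fold change of -0.09 (adjusted p = 0.736) in TAC saline against sham saline, and 0 of 4 heat shock factor genes tested passed by limma. Likewise 0 of 8 nucleotide exchange factors and BAG genes, 0 of 14 chaperonin and prefoldin genes and 0 of the 2 other small heat shock genes tested, Hspb3 and Hspb11, passed. Of 10 mitochondrial chaperones, 0 rose and 1 fell, the protease subunit Clpp, by 0.45 on the log2 scale (adjusted p = 0.0088). HSF1-responsive genes kept on the list by name were not called either (limma adjusted p of 0.322 to 0.464). The log2 fold change was 0.71 for Hspa1a, 0.42 for Hspa1b, -0.30 for Hsph1 and 0.13 for Dnaja1. The 95% interval was -0.22 to 1.63 for Hspa1a and -0.13 to 0.97 for Hspa1b. Hspa1a had only 4 to 19 reads in the sham saline libraries. Such wide intervals do not show that these genes were unchanged. Hsp90aa1, the stress-inducible HSP90, was called (0.41, limma adjusted p = 0.0378), though not without some single libraries. Dnajb1, which HSF1 induces, was not. Whether HSF1 activity changed was not tested.

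In TAC NRG against TAC saline, Des rose by 0.37 ± 0.09 on the log2 scale (SE, limma adjusted p = 0.0254) and Lonp1, a mitochondrial protease, by 0.39 ± 0.09 (adjusted p = 0.0351). Both calls were lost without TAC NRG replicates 4 and 5 (adjusted p = 0.210 for Des and 0.268 for Lonp1), and when only these 2 groups were fitted (0.0643 and 0.0697). Omission of 1 library ended the call of Des in 5 of 10 cases (adjusted p = 0.0509 to 0.0873) and that of Lonp1 in 7 of 10 (0.0509 to 0.125). Lonp1 was also lost by quantile normalization (0.0697) and with mitochondrial genes left out (0.0575). No other gene of the chaperone lists passed in that comparison, where 1.3% of all genes tested passed. In TAC NRG against sham saline, Flnc and Des rose by 0.95 and 0.68, and 4 of 20 HSP90 co-chaperones fell and 0 rose, where 7.39% of all genes tested fell in this comparison. These were Fkbp4 by 0.64, Chordc1 by 0.40, Cdc37l1 by 0.32 and, named after its value was seen, the myosin chaperone Unc45b by 0.24. Fkbp4 kept this call under all alternatives. Chordc1 lost it in 7 of 10 omissions of 1 library (adjusted p = 0.0524 to 0.0883), under scaling by total reads alone (0.105) and without TAC NRG replicates 4 and 5 (0.154). Cdc37l1 lost it without sham saline replicate 1 (0.0502), under scaling by total reads alone (0.0839) and without TAC NRG replicates 4 and 5 (0.0806). Unc45b lost it in 9 of 10 omissions of 1 library and, among other settings, under scaling by total reads alone (0.208).

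Of the remaining lists in TAC NRG against sham saline, few genes passed, where 8.74% of all genes tested rose and 7.39% fell. Among 10 HSP70 and HSP110 genes, Hspa1l rose by 0.93 and Hspa12a fell by 0.76. Dnajb4 rose by 0.26 and Dnaja2 fell by 0.26 among 16 HSP40 genes. Hspbp1 rose by 0.38 among 8 exchange factors, and Lonp1 rose by 0.28 among 10 mitochondrial chaperones. At such shares, 1 call in a direction says little about lists this short. Hspa1l kept its call in every omission of 1 library. Of 10 such omissions, the call was lost in 8 for Hspbp1, 7 for Dnajb4, 6 for Dnaja2, 6 for Lonp1 and 5 for Hspa12a. With TAC NRG replicates 4 and 5 omitted together, the adjusted p was 0.138 for Dnaja2, 0.133 for Hspbp1 and 0.244 for Lonp1. Over 11 alternatives other than omission of 1 library, that one included, the call was lost in 6 for Hspbp1 and 5 for Dnajb4. It was lost in 3 for Lonp1, 2 for Dnaja2 and 0 for Hspa12a and Hspa1l.

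**Figure D4:**
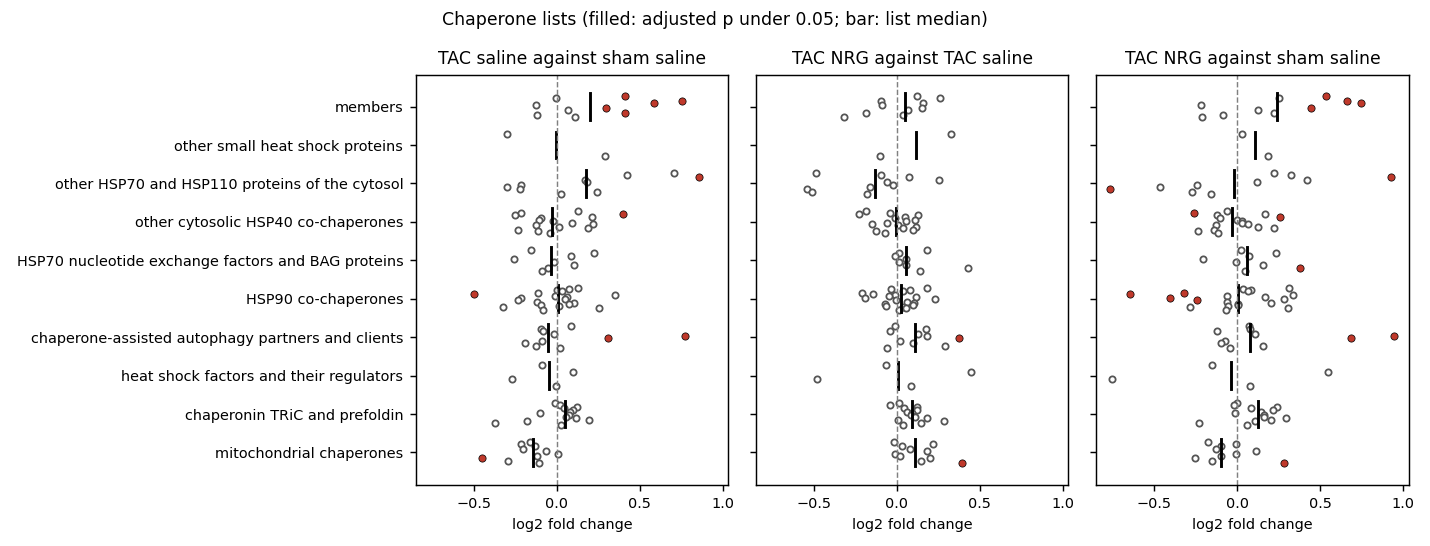
Log2 fold change of every tested gene in the 10 examined chaperones (top row, members) and in 9 lists of related genes, for the 3 comparisons, filled where the adjusted p was under 0.05, with the list median as a bar. In TAC saline against sham saline, 5 of the 10 genes in the top row are filled and the other lists have 0 to 2 filled points each.

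Hspb6 was the gene of the 10 with the largest log2 fold change in TAC saline against sham saline, and the tested genes most like it over all 15 libraries were found by Pearson's r on the log2 values among 10618 genes, predicted genes left out. Acta1, the skeletal alpha-actin that adult mouse ventricle re-expresses under load, came first with r = 0.98. It ranged over 2119.7 to 2522 CPM in TAC NRG, 1845 to 4064 CPM in TAC saline and 375 to 860.0 CPM in sham saline. Next were Gpsm2 with r = 0.95, Nrap, a myofibril assembly protein, with 0.94, Casq1, a calcium store protein, with 0.93, and Ifi27l2a with 0.93. After each group's mean was removed, r was 0.85 for Acta1 and 0.67 to 0.80 for the other 4. The 15 libraries fall into groups and share their scaling, so these values describe likeness only.

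**Figure D5:**
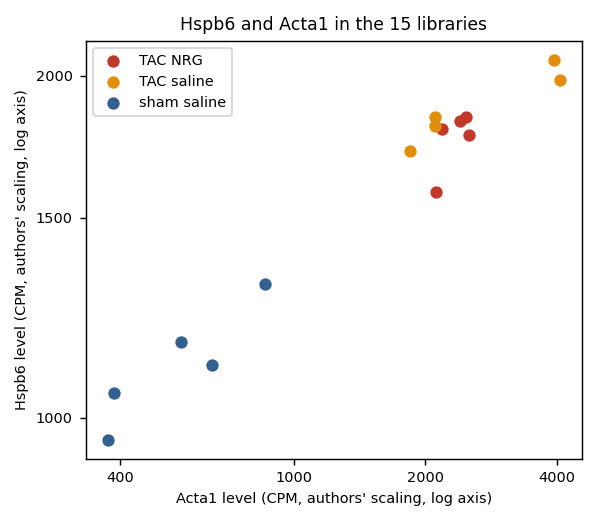
Level of Hspb6 against that of Acta1 in each of the 15 libraries (CPM on the authors' scaling, both axes logarithmic), coloured by group. The 5 sham libraries lie lowest on both axes, and TAC saline replicates 1 and 5 lie highest, with Acta1 at 3951 and 4064 CPM and Hspb6 at 2067 and 1982 CPM.

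TAC saline replicates 1 and 5 were also the highest of their group for Hspb7, at 1772 and 1717 CPM, and for Flnc, at 319 and 319.7 CPM. In TAC NRG against TAC saline, Dnajb1 had the log2 fold change farthest from 0 of the 10 genes, at -0.32, a place it did not keep without TAC NRG replicates 4 and 5 (-0.13, against 0.23 for Hspb2). Those most like Dnajb1 were Rela with r = 0.85, Neu1 with 0.83, Ifrd1 with 0.82, Ccn3 with 0.80 and Lyn with 0.79, over the same 15 libraries and with the same limits.

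Transcripts of other cell types also differed between groups. Over all genes tested, 6.47% rose and 4.24% fell in TAC saline against sham saline. In TAC NRG against sham saline, 8.74% rose and 7.39% fell, and in TAC NRG against TAC saline 1.3% passed in either direction. Beside such shares, 1 call says little about a short list. Of 8 fibroblast markers, 4 rose in TAC saline against sham saline, among them Col1a1, Col1a2 and Lum, with the list summing to 1085 to 1649 CPM in TAC saline and 909 to 985 CPM in sham saline. Of 8 macrophage markers, 6 rose, and their sum was 286 to 451 CPM in TAC saline and 226 to 321 CPM in sham saline. Among these calls, that of Cd68 was lost in 6 of 10 omissions of 1 library and that of C1qc in 3. Of 10 cardiomyocyte markers, 1 rose (Actn2) and 3 fell (Pln, Tnni3 and Ryr2), and their sum was 50845 to 65322 CPM in TAC saline and 62676 to 68668 CPM in sham saline. The Ryr2 call was lost in 7 of 10 omissions of 1 library and in 3 of 10 other alternatives. Actn2 lost its call in 2 of 10 omissions, and Tnni3 in 1 of the other alternatives. Smooth muscle markers, of which 0 of 5 passed, summed to 326 to 400.1 CPM in TAC saline and 227 to 380.2 CPM in sham saline. Immediate early and handling genes, of which 0 of 12 passed, summed to 481 to 671 CPM in TAC saline and 345 to 1103 CPM in sham saline. In TAC NRG against sham saline, 2 of 5 smooth muscle markers rose, Tagln by 1.19 (limma adjusted p = 0.000119) and Cnn1 by 1.77 (adjusted p = 0.00237) on the log2 scale, with a list sum of 296 to 467 CPM in TAC NRG. In that comparison 4 of 8 fibroblast markers rose and 1 fell (1227 to 1833 CPM in TAC NRG), 2 of 8 macrophage markers rose (234 to 410.3 CPM), 1 of 10 cardiomyocyte markers rose and 4 fell (50087 to 64837 CPM), 1 of 5 pericyte markers rose and 2 fell (402 to 441 CPM), 1 of 12 immediate early and handling genes rose (426 to 599 CPM), and 5 of 5 red cell transcripts rose. Omission of 1 library ended the fall of Tnni3 in 6 of 10 cases and that of Pln in 5. The 2 macrophage calls, C1qa and Cd68, ended in 6 and 3 of 10. Of 11 other alternatives, 6 ended the call of C1qa, 3 that of Pln and 1 that of Cd68. For Tnni3, 2 of them ended the call and 1 reversed its direction. In TAC NRG against TAC saline, 1 of 8 endothelial markers fell (Cdh5), with a list sum of 524 to 594 CPM in TAC NRG and 616 to 732 CPM in TAC saline, and 5 of 5 red cell transcripts rose. In the same comparison, Jun was the 1 of 12 immediate early and handling genes that fell, by 0.76 on the log2 scale (limma adjusted p = 0.0152, groups not overlapping), and Tnnt2 the 1 of 10 cardiomyocyte markers that rose, by 0.35 (adjusted p = 0.0351). Without TAC NRG replicates 4 and 5 the adjusted p was 0.0800 for Jun, 0.188 for Tnnt2 and 0.0558 for Cdh5. For the red cell transcripts Hbb-bt, Hba-a1 and Alas2 it was 0.167, 0.195 and 0.197. Against sham saline, their adjusted p without these libraries was 0.0650, 0.0558 and 0.0739, so their calls were lost in both comparisons. The part of cell makeup and of tissue handling in the chaperone results was not tested.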

How the data were processed

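Per the labels, Tri Reagent RNA of the left ventricle went into 3′-end BRB-seq libraries of a single batch. Build GRCm39 comes from the submitters' processing notes. Which aligner and counter were used is not given in the sources used here. In the deposited files the authors stored log2 values of reads plus 0.5 scaled by 1 factor in each library, a form deduced from the steps between low values. Undoing it gave whole reads, within 0.05, for 98.9% to 99.5% of a library's values and for 100.0% of values under 1000 reads. To obtain CPM, each value was raised as a power of 2 and divided by 1000, so low genes include the added 0.5 reads.

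The 15 libraries entered 1 fit of the log2 values in limma (version 3.58.1, R 4.3.3, variance trend on). A gene was tested if 5 or more libraries had 2.95 reads per M, equal to 10 reads at median depth, and its total reached 15 reads, so 4240 of 15258 genes were not tested. The median SE was 0.16, the threshold was 0.05, and all tests were two-sided. Ratios and library measures were compared by exact permutation. "Rose" and "fell" mean past the threshold. No libraries of a group were duplicates (chi-square per degree of freedom 2.16 to 10.9).

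The 10 genes and all lists were chosen with earlier results of these data known. The text names the 10 genes, 6 HSF1-linked genes, up to 3 genes per direction of each list by smallest p, and the 5 genes most like Hspb6 and Dnajb1. Alternatives covered scaling, filter, weights, spread, groups in the fit, mitochondrial genes, replicate numbers and omitted libraries. The fit was tested on simulated data. Tables and plots used Python 3.11.15 with scipy 1.17.1, numpy 2.4.6, matplotlib 3.10.9 and pandas 2.3.3.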

Additional observations from a re-analysis of the deposited data

Results flagged for a closer look

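Within groups of 5, a library stood out where its gap to the nearest other library exceeded 0.71 of the group's range. For genes, gap and range were taken on log2 values, while the levels below are CPM. This was so in 12 of 174 groups of named genes, ratios and library measures (6.9%), where chance gives about 1 in 20. Among the 10 chaperones there were 4. Hspb1 was 182 CPM in TAC NRG replicate 3, against 113 to 126 CPM in the other TAC NRG libraries. Hspb6 was 1582 CPM in TAC NRG replicate 2, against 1773 to 1839.9 CPM in the others. Hspb7 was 909 CPM in sham saline replicate 3, against 1107 to 1143 CPM in the others. Hsp90ab1 was 689 CPM in that same sham library, against 778 to 811 CPM.

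Among chaperone partners, Hsf1 was 22.9 CPM in TAC saline replicate 2 (others 28.7 to 30.6 CPM), Dnaja1 was 49.9 CPM in sham saline replicate 4 (others 37.8 to 39.2 CPM), Fkbp4 was 90.0 CPM in TAC NRG replicate 3 (others 145 to 175 CPM) and Des was 1991 CPM in TAC saline replicate 4 (others 1663 to 1716 CPM). Among cell markers, sham saline replicate 4 was low for Pln at 5056 CPM (others 5359 to 5459 CPM) and high for Cnn1 at 4.73 CPM (others 1.75 to 2.24 CPM). Rgs5 was 327 CPM in sham saline replicate 3 (others 248 to 267 CPM), and Cd68 was 8.48 CPM in TAC saline replicate 3 (others 14.6 to 16.4 CPM).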

How the results depend on the processing

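Over the 10 genes, 584 of 620 alternative values kept both direction and side of the threshold, 16 lost a call, 6 gained one and 14 changed direction, all 14 in values that were not called. Hspb6, Hspb7 and Hspb1 kept their calls in both TAC groups against sham saline under all alternatives run. Other calls were gained in TAC NRG against sham saline: Hspb2 (0.35, adjusted p = 0.022) and Hspa8 (0.22) under scaling by total reads alone, Hspb2 without TAC NRG replicate 2, Hspb8 by quantile normalization (-0.26) and with only 2 groups, and Hsp90aa1 as given above. Under scaling by total reads alone, the median of all genes shifted to 0.10 in TAC saline against sham saline and 84.9% of calls were higher, against 60.4% as reported. In TAC NRG against sham saline that scaling gave 75.9% against 54.2%, and leaving out mitochondrial genes gave 32.4% against 51.7% in TAC NRG against TAC saline and 70.2% against 60.4% in TAC saline against sham saline. Quantile normalization gave 41.0% in TAC NRG against TAC saline.

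Direction changed as follows. For TAC saline against sham saline, Hspb2 became 0.10 and Hsf1 0.021 when scaled by total reads alone, and Hspb2 became 0.0097 by quantile normalization and 0.034 with mitochondrial genes left out. Leaving out 1 library moved Hspb2 between -0.054 and 0.034. For TAC NRG against TAC saline, quantile normalization gave -0.033 for Hspa8 and -0.052 for Hsp90ab1, mitochondrial genes left out gave -0.017 for Hsp90ab1, and weighting by voom gave 0.011 for Hspa1b. Without TAC NRG replicates 4 and 5, Hsp90aa1 became 0.055, Hspa1a 0.27, Hspa1b 0.22, Hsph1 0.065, Bag3 0.060 and Hsf1 0.037. For TAC NRG against sham saline, scaling by total reads alone gave 0.0099 for Hsp90ab1 and 0.031 for Dnaja1, and quantile normalization gave 0.052 for Tnni3.

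Leaving out 1 library also moved Bag3 (-0.058 to 0.026), Hsf1 (-0.14 to 0.0077), Hspa1b (-0.20 to 0.088) and Hsp90ab1 (-0.0075 to 0.073) in TAC NRG against TAC saline, and Hspa1a (-0.063 to 0.58) and Dnaja1 (-0.088 to 0.012) in TAC NRG against sham saline. The number of the 10 genes that rose in TAC saline was 3 to 5 with 1 library left out, and it was 3 without sham saline replicate 1 or 2 or TAC saline replicate 1, 3 or 4. Genes past the threshold numbered 636 to 1495 in TAC saline against sham saline, lowest without TAC saline replicates 5 (636) and 1 (708), and 58 to 229 in TAC NRG against TAC saline, which had 77 with only the 2 groups fitted and 39 without TAC NRG replicates 4 and 5. The difference in the log2 ratio of Hsp90aa1 to Hsp90ab1 was 0.48 to 0.60, and its adjusted p passed the threshold in no omission (0.0635 to 0.0952). The smallest p that 4 against 5 libraries allow is larger than that for 5 against 5. The cause of these changes was not tested.

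Same-numbered libraries did not deviate together (correlations -0.25 to 0.08), so the numbers were taken as names. With a replicate block, 1049, 111 and 1645 genes passed in the 3 comparisons, against 1180, 143 and 1777 as reported, and Cryab lost its call in TAC saline against sham saline (adjusted p = 0.0523). Depth limits the rarer genes, as Hspa1a had 2 to 23 reads a library and Dnajb1 23 to 93.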
